A study of Mus musculus with 5 samples.

Results

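The genes described here are the interferon-beta and interferon-gamma genes (Ifnb1 and Ifng), the chains of their receptors (Ifnar1, Ifnar2, Ifngr1 and Ifngr2) and the chains of the interleukin-10 receptor (Il10ra and Il10rb). They were taken as every probe set whose platform annotation names only one of these 8 symbols, dim probe sets included, which gave 8 of 8251 genes with a probe set of their own and 9 of the 12488 probe sets on the array, with 2 for Ifnar2 and 1 for each other gene. The study hybridised RNA of mouse peritoneal macrophages to 5 Affymetrix MG-U74Av2 arrays, 1 per sample. The groups were poly IC plus ethanol (2 pools of mice), poly IC alone (2 pools) and untreated naive animals (1 sample). Poly IC is a synthetic double-stranded RNA, given at 0.1 mg per mouse with the dose unstated for poly IC replicate 1, and ethanol was given by mouth at 6 g per kg. All treated animals were 12-week-old female F1 hybrids (C57Bl/6 x C3H), and the label of the naive sample gives neither sex, age, strain nor pooling. A difference from naive therefore cannot be told apart from one of sex, age or strain, and there was no group with ethanol only, so ethanol's own effect and a changed answer to poly IC cannot be told apart. Time between dosing and harvest was not given in the sources used here.

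Macrophages that sense double-stranded RNA make interferon-beta, which binds a receptor of the Ifnar1 and Ifnar2 chains on the same and on neighbouring cells and acts through the kinases Tyk2 and Jak1. Interferon-gamma comes mainly from T and NK cells and reaches macrophages through Ifngr1, which binds it, and Ifngr2, with Jak1 and Jak2. IL-10 restrains activated macrophages through Il10ra, its binding chain, and Il10rb, an accessory chain shared with receptors for IL-22 and lambda interferons. All of these chains belong to the class II cytokine receptor family. In the RefSeq annotation of GRCm38.p6, Ifnar2, Il10rb, Ifnar1 and Ifngr2 follow one another as consecutive protein-coding genes on chromosome 16.

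After the submitters' global scaling, the median signal of an array lay between 769 and 902. The brightest of 19 control probe sets for bacterial and yeast genes, taken as unspiked, had a signal of 299.6 to 443.8 depending on the array, and signals below it were treated as not above background. Signal of the 18S ribosomal RNA control was 66548 on the array of poly IC replicate 2, against 5113 to 19415 on the other 4. All 10 macrophage markers lay above the brightest unspiked control on every array, Lyz2 at 77383 and 77488.5 with ethanol, 73144 and 81816 with poly IC and 76774 in the naive sample. Red cell markers summed to 19534 and 10491 with ethanol, 18325 and 34047 with poly IC and 1144 in the naive sample. Fewer cells of a type and less RNA per cell cannot be told apart in these bulk samples. P-values measure the spread between pools, not between animals, and the number of arrays limits their precision.

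The interferon genes themselves were dim. Ifnb1 had signals of 700 and 471 with poly IC plus ethanol, 96.6 and 787 with poly IC and 133 in the naive sample. It was above the brightest unspiked control on 3 arrays, both ethanol arrays and poly IC replicate 2, and below it on poly IC replicate 1 and on the naive array. The poly IC pools thus spanned the whole range of the other arrays (442 ± 488, SD, n = 2). Ifng had signals of 326 and 58.6 with ethanol, 808 and 493 with poly IC and 141 in the naive sample. Both poly IC arrays lay above the control and above every other array, ethanol replicate 1 lay just above its control of 299.6, and ethanol replicate 2 and the naive array lay below theirs.

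**Figure D1:**
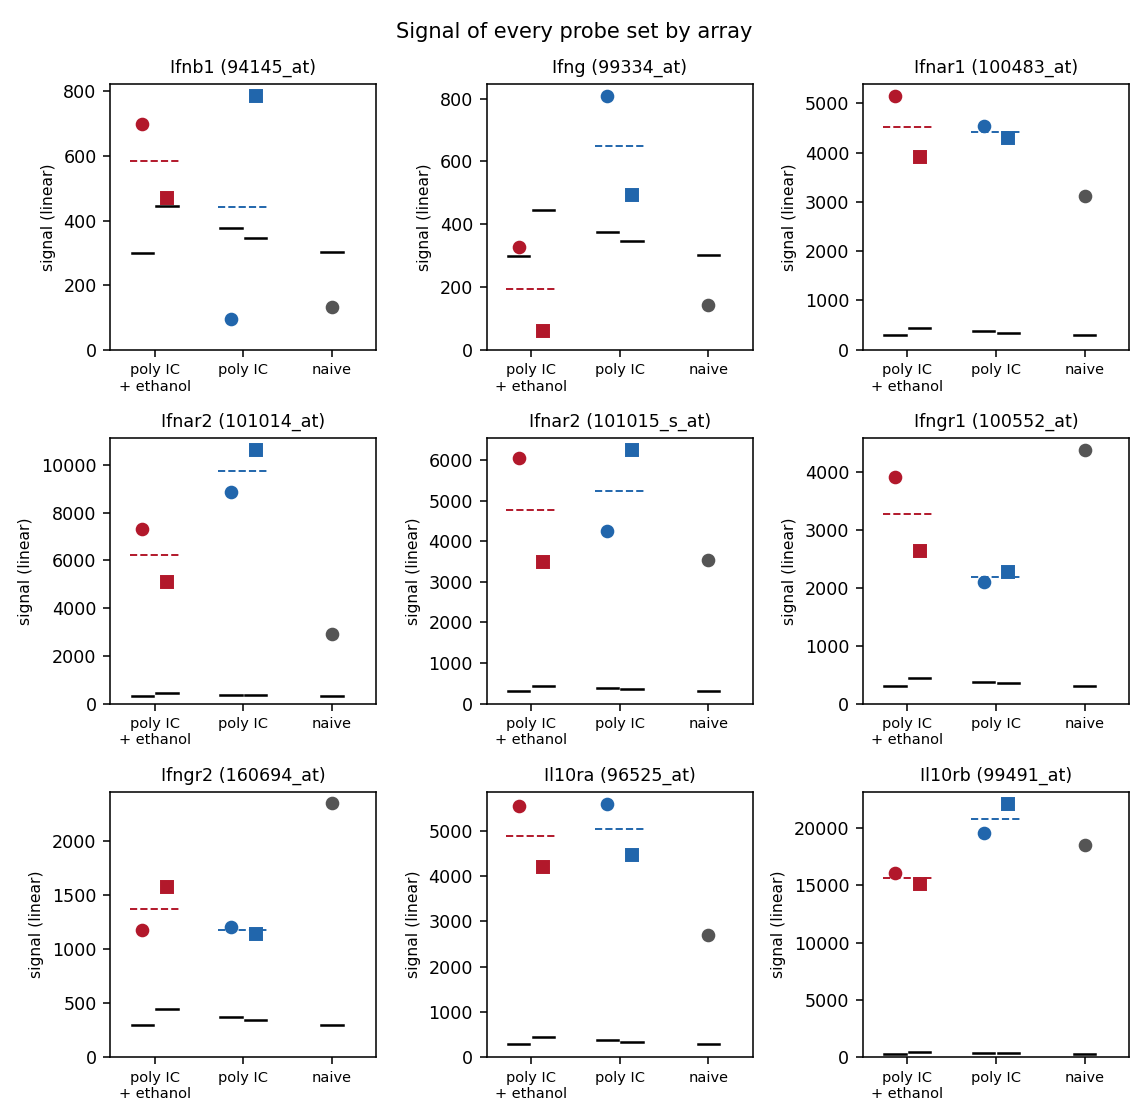
Signal on a linear scale (vertical axis) of each of the 9 probe sets in poly IC plus ethanol, poly IC and naive samples, with circles for replicate 1 and squares for replicate 2. Dashed lines are means of 2 arrays and black bars the brightest unspiked control of that array. Ifnb1 and Ifng lie near the black bars, while all 7 receptor probe sets lie above them on all 5 arrays.

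Neither interferon gene passed the filter on low signals (the 40th percentile of mean signal, 513), so neither entered the main test. In a fit of all 10833 probe sets with a single symbol, limma's moderated test with Benjamini-Hochberg adjustment called 0 of the 2 in each comparison, where it called 2.58% of probe sets between poly IC plus ethanol and poly IC, 14.7% between poly IC and naive and 6.44% between poly IC plus ethanol and naive. At an unadjusted p under 0.05, Ifng passed in the comparisons of poly IC plus ethanol with poly IC and of poly IC with naive, and Ifnb1 in none. Of the genes in the main test, which Ifng did not enter, 25.8% passed at that level in the former comparison and 42.3% in the latter. The share in the fit of all probe sets was not counted, so these shares are no background for Ifng. Ifng differed by -1.07 log2 units between poly IC plus ethanol and poly IC (SE 0.40, adjusted p = 0.233) and by 1.18 between poly IC and naive (SE 0.49, adjusted p = 0.176). The first of these was -0.62 without ethanol replicate 2, whose signal of 58.6 lay below its control of 443.8, and it was -1.76 with a smaller offset and -0.47 with a larger one. The second was 1.83 and 0.53 with the same offsets. With the naive signal raised to the brightest unspiked control, the geometric mean of the poly IC arrays for Ifng was 2.09-fold that signal. This ratio bounds only the naive side and leaves out the spread between the poly IC arrays (808 and 493). Ifnb1 differed by 0.47 between poly IC plus ethanol and poly IC (SE 0.53, adjusted p = 0.743). Without poly IC replicate 1 that value was -0.33, so the direction of Ifnb1 rested on the one array with a signal of 96.6. For Ifnb1, the same ratio was 1.90-fold between poly IC plus ethanol and naive (adjusted p = 0.415 in the fit), from ethanol arrays of 700 and 471. That ratio was under 1 for Ifnb1 with poly IC and for Ifng with ethanol, each against naive, so no fold is given there. All log2 differences are of signal + 250, an offset that shrinks the differences of dim probe sets such as these.

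The promoters of both interferon genes are shown because genes known to induce them were among those that changed. For Ifng these were cytokines, not factors that bind its promoter. Neither interferon gene was itself called, and a link between these changes and the promoter sites was not tested. Below are the 250 bases before the annotated start in RefSeq's GRCm38.p6, Ifnb1 from chr4:88522795-88523044 on the minus strand and Ifng from chr10:118440796-118441045 on the plus strand. Capitals mark matches, on either strand, to the core of an interferon regulatory factor site (AANNGAAA), the interferon-stimulated response element (GAAA, any 2 bases and GAAA, whose last letters form the same core), the interferon-gamma activated site (TTCNNNGAA) and one form of the NF-kB site (GGGA, any 2 bases and TTCC).
Ifnb1: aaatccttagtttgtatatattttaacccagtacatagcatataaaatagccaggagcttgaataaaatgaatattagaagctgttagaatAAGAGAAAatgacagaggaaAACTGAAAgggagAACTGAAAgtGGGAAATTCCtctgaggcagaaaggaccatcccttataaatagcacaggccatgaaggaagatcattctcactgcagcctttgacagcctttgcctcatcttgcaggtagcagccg
Ifng: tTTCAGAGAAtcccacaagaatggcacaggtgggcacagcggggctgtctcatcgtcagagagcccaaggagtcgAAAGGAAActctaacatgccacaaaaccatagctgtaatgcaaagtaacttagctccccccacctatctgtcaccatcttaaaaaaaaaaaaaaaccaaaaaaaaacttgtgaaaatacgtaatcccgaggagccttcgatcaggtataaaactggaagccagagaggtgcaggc

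The Ifnb1 window held 3 matches to the regulatory factor core and 1 to the NF-kB form, which starts 116 bases before the gene. These matches lie in the stretch known as the interferon-beta enhancer, where interferon regulatory factors and NF-kB are known to bind after RNA sensing. Of 32851 promoter windows of the same length, 21.3% held the regulatory factor core, 2.98% the response element, 7.02% the activated site and 1.21% the NF-kB form. The Ifng window held 1 match to the regulatory factor core and 1 to the activated site. Entries for 6 of the 8 genes were matched, and Il10ra and Il10rb were not among them.

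Among genes that sense RNA and induce Ifnb1, 5 of 8 tested members rose and 1 fell between poly IC and naive (median 0.87 log2 units, against -0.16 for all genes tested). Of all genes tested, 11.7% rose and 20.1% fell there. Ifih1, a cytoplasmic sensor of double-stranded RNA, had signals of 44582 and 45800 with poly IC and 1767 in the naive sample (log2 difference 4.49, SE 0.15). Irf7 and Ikbke, a factor and a kinase that drive interferon transcription, rose by 3.57 (SE 0.24) and 2.41 (SE 0.17). The member that fell was Atf2, a subunit of the factor that binds the Ifnb1 enhancer (-0.87). Ethanol arrays differed from poly IC arrays in 3 of the 8, where 10.6% of all genes tested were called. Ifih1 fell (26601 and 23070 against 44582 and 45800, a difference of -0.86, SE 0.12) and Irf7 fell (-0.98, SE 0.19). Jun, part of the same enhancer factor, rose (0.65, SE 0.17).

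Genes that prompt lymphocytes to make Ifng also changed. Of 12 listed genes, 11 were on the array and 6 were tested. Of these 6, 3 rose between poly IC and naive (median 0.76), where 11.7% of all genes tested rose. They were Il15, Il12b and Il18, all cytokines that act on NK and T cells. Il15 had signals of 2151 and 1486 with ethanol, 4584 and 5092 with poly IC and 343 in the naive sample. It rose by 3.10 between poly IC and naive (SE 0.26), and with ethanol against poly IC it fell (-1.32, SE 0.21, adjusted p = 0.0055). Il18 also fell with ethanol (-0.77, SE 0.19), and the other 4 did not pass, where 4.8% of all genes tested fell. Markers of T and NK cells, known producers of interferon-gamma, were mostly dim. Of 14 markers on the array, 4 lay above the brightest unspiked control on all arrays, and Ncr1, Cd3e and Cd8a lay below it on all 5. Their signals summed to 6158 and 7950 with ethanol, 12065 and 8991 with poly IC and 7651 in the naive sample. Of 6 tested, Gzmb and Gzma, granzymes of cytotoxic cells, rose and Klrd1 fell between poly IC and naive, and Gzmb fell with ethanol (1255 against 4158 with poly IC, -1.51, SE 0.27). Among all genes tested, 11.7% rose and 20.1% fell between poly IC and naive, and 4.8% fell with ethanol against poly IC. The part of T and NK cells in the Ifng signal was not tested.

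All receptor probe sets lay above the brightest unspiked control on every array, and the chains did not move together with poly IC. Ifnar2, by the brighter of its 2 probe sets, and Il10ra rose. Ifngr1 and Ifngr2 fell, and Ifnar1 and Il10rb did not pass the test. In the main fit of 5581 genes, 4 of the 6 tested members were thus called between poly IC and naive, 2 in each direction, where 31.8% of all genes tested were called (11.7% higher and 20.1% lower). At an unadjusted p under 0.05 it was also 4 of 6, against 42.3% of all genes. Their median difference was 0.32, against -0.16 for all genes. For poly IC plus ethanol against naive, 2 of 6 were called, both higher (Ifnar2 and Il10ra), where 16.6% of all genes were called (8.39% higher and 8.26% lower). There 4 of 6 had an unadjusted p under 0.05, against 30.4% of all genes, and the median was 0.12, against -0.11.

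With ethanol added to poly IC, limma called 0 of the 6 receptor genes at adjusted p under 0.05, where 10.6% of all genes were called (5.77% higher and 4.8% lower). At an unadjusted p under 0.05 Ifnar2, Ifngr1 and Il10rb passed, 3 of 6, against 25.8% of all genes. The members' median was -0.01, against 0.07 for all genes. The same 3 genes had ethanol arrays that did not overlap with the poly IC arrays, as did 54.7% of all genes. Both poly IC arrays lay on one side of the naive array for all 6 receptor genes, as for 87.1% of all genes, and both ethanol arrays did for all 6, as for 80.8%. No other tool was run, and the 3 comparisons share arrays, so their values for a gene are not independent.

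**Figure D2:**
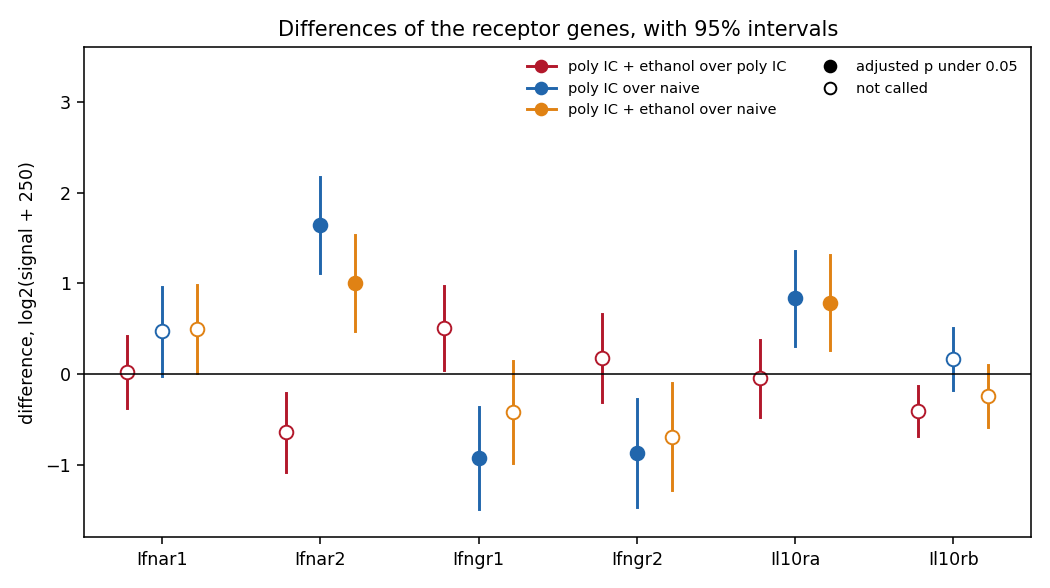
Difference in log2(signal + 250) (vertical axis) of the 6 receptor genes in the 3 comparisons, as points with 95% intervals from the limma fit. Filled points had an adjusted p under 0.05. Ifnar2 stood highest against naive (1.65), both Ifngr chains stood below 0, and no point of poly IC plus ethanol over poly IC was filled.

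Ifnar2, the chain that binds type I interferon with high affinity, changed most. Its brighter probe set had signals of 7321 and 5100 with poly IC plus ethanol, 8870 and 10600 with poly IC and 2929 in the naive sample. All 4 treated arrays lay above the naive one, and both ethanol arrays lay below both poly IC arrays. Between poly IC and naive the log2 difference was 1.65 (SE 0.24, adjusted p = 0.000612), or 3.13-fold. The call held under each of the 12 alternatives run, with adjusted p up to 0.0112. Its smallest adjusted p-values came from fits without an ethanol array, which left the difference at 1.65 while the SE fell to 0.18. Such fits estimate the spread from fewer arrays, so they are not read as stronger evidence. With ethanol against naive the log2 difference was 1.00 (SE 0.24, adjusted p = 0.0176). That call was lost with eBayes without the trend (adjusted p = 0.0792) and when every probe set was tested without a filter (0.0555). The difference was 0.75 without ethanol replicate 1 and 1.25 without ethanol replicate 2.

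Against poly IC alone, Ifnar2 on the ethanol arrays differed by -0.64 (SE 0.19, 95% interval -1.08 to -0.21, adjusted p = 0.0637) and did not pass. It did pass with a filter at the 60th percentile (adjusted p = 0.0309). It also passed without ethanol replicate 1 (-0.89), a fit with the spread from fewer arrays. Without ethanol replicate 2 the difference was -0.39 (adjusted p = 0.154), and over all alternatives the adjusted p reached 0.373. The second Ifnar2 probe set, which by its suffix may share probes with other transcripts, had signals of 6042 and 3499 with ethanol, 4248 and 6242 with poly IC and 3529 in the naive sample. Both poly IC arrays lay above the naive array, while the ethanol arrays overlapped with the poly IC arrays and lay on both sides of the naive one. In the fit of all probe sets it differed by 0.52 between poly IC and naive (SE 0.34, adjusted p = 0.405) and by -0.15 between poly IC plus ethanol and poly IC (SE 0.28, adjusted p = 0.852). The brighter Ifnar2 probe set in that same fit differed by 1.65 from naive (adjusted p = 0.00455). The test called the brighter of the 2 Ifnar2 probe sets and not the other, and the difference between them was not tested.

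Ifnar1, the partner chain that carries Tyk2, had signals of 5138 and 3913 with ethanol, 4528 and 4288 with poly IC and 3112 in the naive sample. The naive array was lowest and the treated groups overlapped. Its difference was 0.47 between poly IC and naive (SE 0.22, 95% interval -0.02 to 0.96, adjusted p = 0.13). It passed with quantile normalization (0.64, adjusted p = 0.0459), and at the same 0.47 without either ethanol array, where fewer arrays give the spread. Without poly IC replicate 1 or 2 the difference was 0.43 or 0.51 and did not pass. With ethanol against poly IC it was 0.02 (SE 0.18, 95% interval -0.37 to 0.42), with a sign that turned under 4 of 13 alternatives.

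Both chains of the interferon-gamma receptor were lower with poly IC. Ifngr1, the binding chain, had signals of 3910 and 2631 with ethanol, 2100 and 2273 with poly IC and 4382 in the naive sample. The naive array was highest, the ethanol arrays were next and the poly IC arrays were lowest, with no overlap. Its log2 difference between poly IC and naive was -0.93 (SE 0.25, adjusted p = 0.0186). Without poly IC replicate 1 it was -0.88 (adjusted p = 0.0815) and without replicate 2 it was -0.98 (adjusted p = 0.0593). Such a fit sets 1 poly IC array against 1 naive array, with the spread between arrays taken from the ethanol pools and from the other genes. The adjusted p with median-centred arrays, eBayes without the trend or all probe sets unfiltered lay between 0.0504 and 0.0552. The lowest adjusted p-values over all alternatives came from fits without an ethanol array, at the same difference of -0.93. With ethanol against poly IC the Ifngr1 difference was 0.51 (SE 0.21, 95% interval 0.05 to 0.97, adjusted p = 0.152), which did not pass. Without ethanol replicate 2 it passed (0.77, adjusted p = 0.00652), and without ethanol replicate 1 it was 0.24 (adjusted p = 0.456, the highest of its alternatives). Against naive, the ethanol arrays did not pass (-0.42, SE 0.25, adjusted p = 0.294), except without ethanol replicate 1 (-0.69, adjusted p = 0.0284). Without ethanol replicate 2 that difference was -0.16 (adjusted p = 0.716).

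Ifngr2, the chain that brings Jak2, had signals of 1176 and 1581 with ethanol, 1208 and 1146 with poly IC and 2356 in the naive sample. The 4 treated arrays all lay below the naive one and overlapped among themselves. Its difference between poly IC and naive was -0.87 (SE 0.26, adjusted p = 0.0313). Leaving out poly IC replicate 1 (-0.90) or 2 (-0.84) ended the call at about the same difference. The call was also lost with no filter (adjusted p = 0.091), with all probe sets unfiltered (0.0996) or with quantile normalization (0.072). Here too the lowest adjusted p-values came from fits without an ethanol array, at the same -0.87. Against naive, the ethanol arrays differed by -0.69 (SE 0.26, adjusted p = 0.112). That difference was -0.87 without ethanol replicate 2 and -0.51 without ethanol replicate 1. With ethanol against poly IC the Ifngr2 difference was 0.18 (SE 0.22, 95% interval -0.31 to 0.66).

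The promoters of Ifnar2 and Ifngr2 are shown because these genes changed in opposite directions with poly IC, Ifnar2 by its brighter probe set. On chromosome 16, Il10rb and Ifnar1 lie between them. The windows are the 250 bases before each annotated start in RefSeq's GRCm38.p6, both on the plus strand, Ifnar2 from chr16:91372533-91372782 and Ifngr2 from chr16:91546809-91547058. Capitals again mark matches to the motifs above.
Ifnar2: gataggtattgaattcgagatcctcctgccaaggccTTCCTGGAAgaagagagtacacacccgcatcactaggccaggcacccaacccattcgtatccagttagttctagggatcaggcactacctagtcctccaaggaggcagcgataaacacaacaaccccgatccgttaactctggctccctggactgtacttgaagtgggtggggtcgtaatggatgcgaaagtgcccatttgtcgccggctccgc
Ifngr2: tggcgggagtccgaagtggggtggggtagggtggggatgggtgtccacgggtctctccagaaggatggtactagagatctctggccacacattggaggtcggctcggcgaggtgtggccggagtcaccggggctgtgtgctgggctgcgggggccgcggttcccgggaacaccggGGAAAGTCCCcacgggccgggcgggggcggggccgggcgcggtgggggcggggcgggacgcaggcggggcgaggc

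Ifnar2 held 1 match to the interferon-gamma activated site, starting 214 bases before the gene, and Ifngr2 held 1 to the NF-kB form, starting 75 bases before it. Neither held the interferon regulatory factor core or the response element. Ifnar1 and Ifngr1 held none of the 4 motifs in these windows. G and C made up 54% of the Ifnar2 window and 74% of that of Ifngr2.

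Il10ra, the binding chain of the IL-10 receptor, had signals of 5556 and 4196 with ethanol, 5593 and 4475 with poly IC and 2697 in the naive sample. All 4 treated arrays lay above the naive one, and the treated groups overlapped. Its log2 difference was 0.83 between poly IC and naive (SE 0.23, adjusted p = 0.0214), or 1.78-fold, and 0.79 between poly IC plus ethanol and naive (SE 0.23, adjusted p = 0.0463). Leaving out poly IC replicate 1 ended the poly IC call (0.68), as did eBayes without the trend (adjusted p = 0.0633) and testing all probe sets unfiltered (0.0526). The lowest adjusted p-values of the poly IC call came from fits without an ethanol array, at the same 0.83. The ethanol call against naive was lost under 6 of 12 alternatives, among them without poly IC replicate 1 or 2. With eBayes without the trend its adjusted p was 0.116. With ethanol against poly IC the Il10ra difference was -0.05 (SE 0.19, 95% interval -0.47 to 0.38).

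Il10rb, the shared accessory chain, had signals of 16092 and 15124 with ethanol, 19550 and 22056 with poly IC and 18535 in the naive sample. The naive array lay between the groups, above both ethanol arrays and below both poly IC arrays. Il10rb differed by -0.41 between poly IC plus ethanol and poly IC (SE 0.12, 95% interval -0.69 to -0.13, adjusted p = 0.0691). It passed with a filter at the 60th percentile (adjusted p = 0.0443) and without ethanol replicate 1 (-0.45, adjusted p = 0.0235), and reached 0.403 over its alternatives. Neither treated group passed the test against naive, with 0.16 for poly IC (SE 0.15, adjusted p = 0.455, and -0.03 with quantile normalization). For ethanol it was -0.25 (SE 0.15, adjusted p = 0.314).

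Markers of other cell types moved in the comparisons in which the receptor genes differed. B cell markers fell between poly IC and naive (8 of 8 tested, median -1.76) and summed to 106230 and 110856 with ethanol, 75027 and 61817 with poly IC and 219891 in the naive sample. Of 8 tested neutrophil markers, 6 rose between poly IC and naive (median 1.99), where 11.7% of all genes rose and 20.1% fell. All 10 on the array summed to 30489 and 27604 with ethanol, 115611 and 83926 with poly IC and 9364 in the naive sample. Of these poly IC sums, S100a8 gave 56818 and 40341 and S100a9 gave 31307 and 20508. Only 3 of the 10 lay above the brightest unspiked control on every array, and Mpo was below it throughout. Ethanol arrays also differed from poly IC arrays, where 4 of 8 B cell markers rose and 3 of 8 neutrophil markers fell. Of all genes tested, 5.77% rose and 4.8% fell there. The part of these cell types in the receptor signals was not tested. Macrophage markers summed to 337221 and 313717 with ethanol, 343379 and 382664 with poly IC and 257384 in the naive sample, with 2 of 10 higher (Fcgr1 and Cd14) and 2 lower (Gata6 and Mertk) between poly IC and naive. Among all genes, 11.7% were higher and 20.1% lower there, the latter share close to 2 of 10. Of the listed plasmacytoid dendritic cell markers, Siglech and Bst2 were not on the array. Irf8 alone of the 2 tested rose with poly IC (0.58), which by itself does not show a change in these cells. For mast cells, 0 of 4 markers passed.

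Genes through which these receptors signal rose with poly IC. Of 5 tested kinases and factors among 7 listed, Jak2, Irf9, Stat3 and Jak1 rose between poly IC and naive, and Tyk2 did not pass (-0.45, adjusted p = 0.396). Their median was 1.21, and 11.7% of all genes tested rose there. Jak2, the kinase of Ifngr2, had signals of 14387 and 15550 with poly IC and 3040 in the naive sample (2.21, SE 0.19), and Irf9, the DNA-binding part of the type I interferon factor, rose by 1.49 (SE 0.19). So the Ifngr2 chain was lower and its kinase higher in the same arrays. Against poly IC, ethanol arrays differed in 1 of the 5, where 10.6% of all genes were called. This was Jak2, which fell (9852 and 7838 against 14387 and 15550, a difference of -0.75, SE 0.16, adjusted p = 0.0162).

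Inhibitors of the same receptors rose as well. Between poly IC and naive, 6 of 8 tested rose and 1 fell (median 1.21), where 11.7% of all genes rose and 20.1% fell. Usp18, which binds Ifnar2 and dampens its signal, had signals of 50658 and 64772 with poly IC and 660 in the naive sample (5.98, SE 0.19). Socs1 and Socs3, which block Janus kinases, rose by 4.11 (SE 0.16) and 3.34 (SE 0.11). The gene that fell was the phosphatase Ptpn6 (-1.79), at 3507 and 3101 with poly IC and 12041 in the naive sample. With ethanol, Usp18 alone of the 8 passed against poly IC, at 24548 and 20263 (-1.35, SE 0.16). Of all genes 10.6% were called there, a share close to 1 of 8. Socs3 was 113911 and 111070 with ethanol and 105563 and 106913 with poly IC (0.08, SE 0.09, adjusted p = 0.605).

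**Figure D3:**
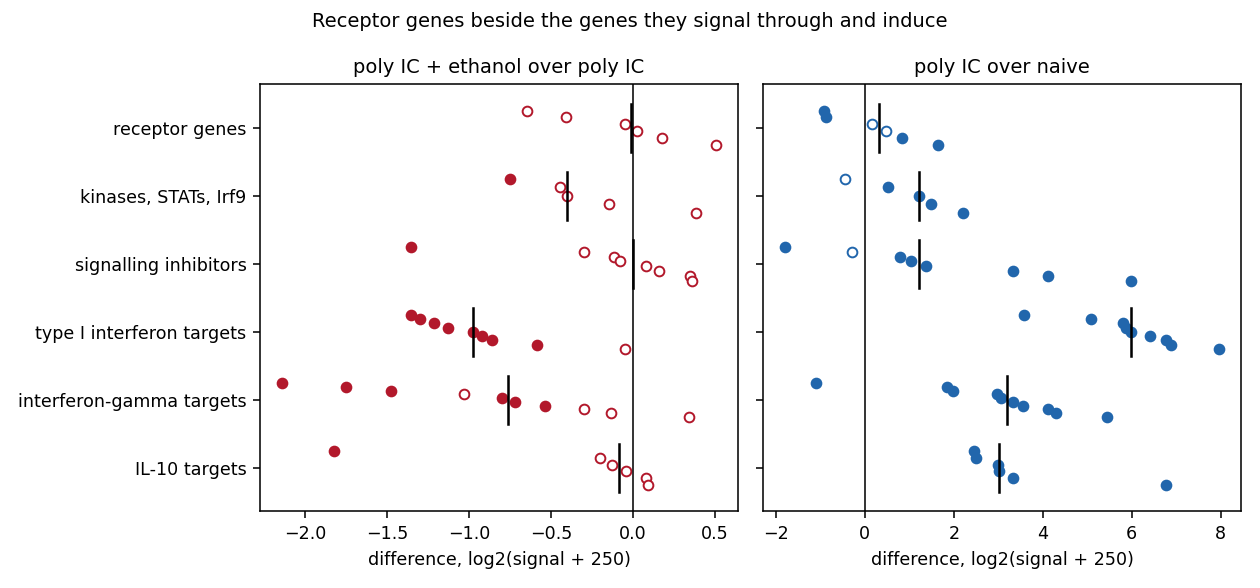
Difference in log2(signal + 250) (horizontal axis) of each tested gene in the receptor set and 5 lists, with poly IC plus ethanol over poly IC on the left and poly IC over naive on the right. Filled points had an adjusted p under 0.05, black ticks are list medians and the 2 horizontal scales differ. Type I interferon targets lie lowest by median on the left (-0.98) and highest on the right (5.98), while the receptor genes lie on both sides of 0 in both panels.

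Among genes known to be induced through type I interferon receptors, all 9 tested rose between poly IC and naive (median 5.98). Between poly IC plus ethanol and poly IC, 8 of them fell (median -0.98, against 0.07 for all genes). Among all genes tested, 11.7% rose and 20.1% fell in the former comparison, and 4.8% fell in the latter. Rsad2, an antiviral enzyme, had signals of 26758 and 23527 with ethanol and 59606 and 64477 with poly IC (-1.30, SE 0.13, adjusted p = 0.000537). Mx2 was the member that did not pass. Among genes induced through the interferon-gamma receptor, 9 of 10 rose and 1 fell with poly IC (median 3.19). The T cell chemokine Cxcl9 had signals of 5715 and 5190 with poly IC and 40.7, below the brightest unspiked control, in the naive sample. The gene that fell was Ciita, the activator of MHC class II genes (-1.10, SE 0.25), which B cells also express. With ethanol, 6 of the 10 fell against poly IC (median -0.76), Cxcl9 at 1168 and 926 among them (-2.14, SE 0.21).

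Genes that IL-10 is known to induce in macrophages all rose with poly IC, 6 of 6 (median 3.00), against 11.7% of all genes. Il10 itself had signals of 1984 and 2096 with poly IC and 32.9, below the brightest unspiked control, in the naive sample (adjusted p = 3.5e-05). With ethanol against poly IC, 1 of the 6 passed, the IL-1 antagonist Il1rn (-1.83, SE 0.13), where 10.6% of all genes were called. Il10 was 1948 and 1550 with ethanol (-0.20, SE 0.23, adjusted p = 0.64). Socs1, Socs3, Usp18, Irf7, Fcgr1 and Il10 stand on more than 1 of these lists, and most genes named here also answer to other signals. Of the other class II receptors and ligands, 9 of 19 were on the array and 4 passed the filter. Il10, Ifna5 and F3, a coagulation receptor of the same family, rose between poly IC and naive, and 0 of 4 passed between poly IC plus ethanol and poly IC.

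Profiles over the 5 arrays were compared by the root mean square difference of log2 values after removing each gene's mean, as a description. Nearest to Ifnar2 were the copper transporter Slc31a1 (0.0991 log2 units), Lgals3bp (0.101) and Ddhd1 (0.12). Nearest to Ifngr1 were Arhgap35 (0.0447), Arhgef3 (0.0508) and Ints9 (0.0573), and nearest to Ifngr2 were 2510002D24Rik (0.0462), Dlg1 (0.0506) and Rpl22 (0.0522). Nearest to Il10ra were Gabpb1 (0.067), Cdr2 (0.0698) and Mrpl16 (0.0833). None of the other tested members was among the 3 nearest genes of these 4 receptor chains. Ifnb1 and Ifng lay outside the tested genes and could not appear. Nearest genes were not sought for Ifnar1 and Il10rb, which were not called.

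**Figure D4:**
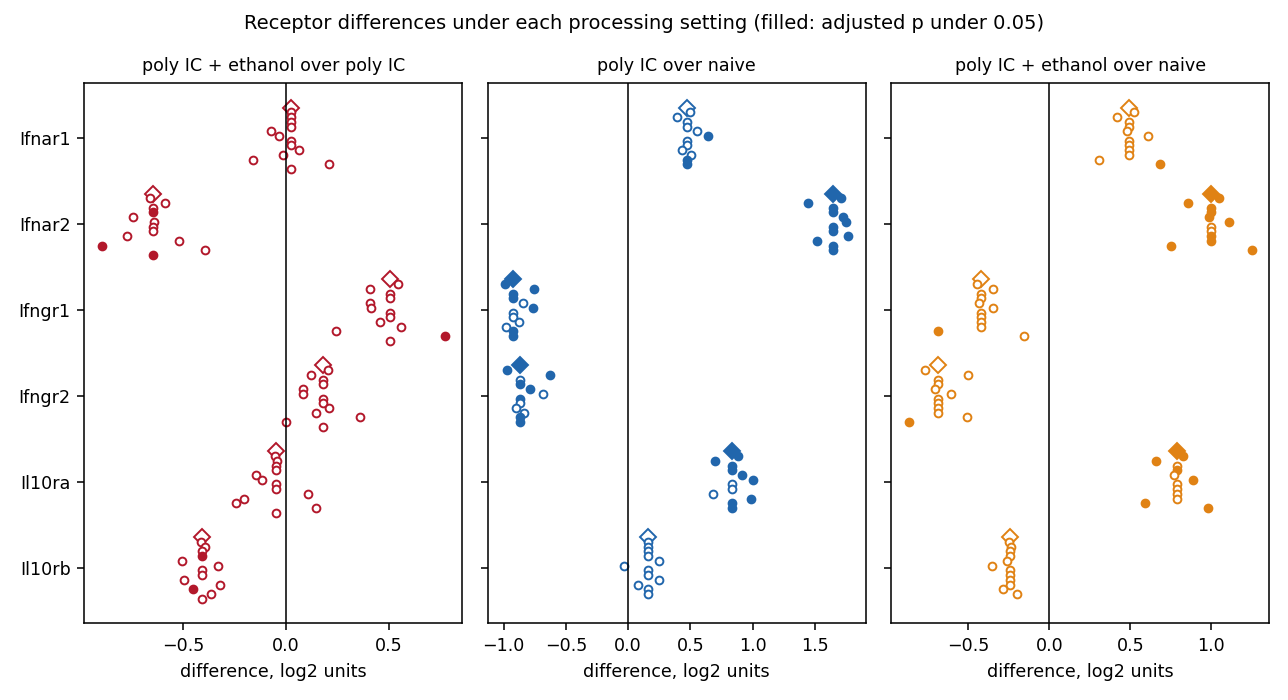
Difference in log2 units (horizontal axis) of each receptor gene under the main setting (diamond) and each alternative (circles), in the 3 comparisons, filled where the adjusted p was under 0.05. Alternatives with another offset change the scale itself. Ifnar2 over naive with poly IC is filled throughout, and in the left panel only Ifnar2, Ifngr1 and Il10rb have any filled point.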

How the data were processed

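Each deposited table holds linear intensities (MAS signals), extracted with Microarray Suite 5.0 and globally scaled to a target of 2500, per the labels, which also name Data Mining Tool 3.0. Since this scaling fixes an array's mean, a shift common to all genes is lost. Detection calls were not used here. Of 12488 probe sets, 66 were controls, 10833 had 1 gene symbol, 396 several and 1193 none listed. Symbols were updated by Entrez ID through RefSeq (GRCm38.p6, 10817 found), and promoter windows came from the same build. Probe sets with 1 symbol and a mean signal at or above the 40th percentile (513) were kept (6675), and the brightest stood for its gene, which gave 5581 genes.

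Signals were analysed as log2(signal + 250) with limma 3.58.1 in R 4.3.3, with a mean for each of 3 groups, eBayes with an intensity trend, 2 residual and 7.63 prior degrees of freedom, two-sided p-values adjusted by Benjamini-Hochberg over all genes, and a threshold of 0.05. The naive array was assumed to vary like the others. The script was tested on simulated data. Members, lists and alternatives were chosen with earlier results of these data known. Named genes were all members, up to 3 genes per list with the largest absolute statistic, and the 3 nearest profiles of called members. Genes outside this rule were named after their values were seen (Tyk2, Ptpn6, Atf2, Ciita, Mx2, Mertk, Lyz2). Only a part of the genes the rule selects is printed. Alternatives were smaller and larger offsets, no filter or a 60th percentile filter, median-centred or quantile-normalized arrays, eBayes without the trend, every single-symbol probe set, each treated array left out in turn and a replicate block. Figures used matplotlib 3.10.9 in Python 3.11.15.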

Additional observations from a re-analysis of the deposited data

Results flagged for a closer look

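The probe sets of Ifnb1 and Ifng were left out of the main test by the filter on low signals, but some treated arrays exceeded both the naive array and the brightest unspiked control of their own array. Ifnb1 did so at 699.7 and 471.3 on the 2 ethanol arrays and at 787.2 on poly IC replicate 2, against 133.2 on the naive array. Ifng did so at 326 on ethanol replicate 1 and at 807.7 and 493 on the poly IC arrays, against 141.4 on the naive array. Neither gene was called in the fit without a filter. No group had 4 samples, so single arrays were not tested as outliers.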

How the results depend on the processing

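The count of genes called between poly IC plus ethanol and poly IC was 590. It was 324 with no filter, 280 with every probe set unfiltered, 86 with eBayes without the trend, and between 139 and 1076 with 1 array left out (203 and 139 without poly IC replicates 1 and 2, 1076 without ethanol replicate 1). The split was 322 higher and 268 lower, and 165 and 254 with median-centred arrays. For poly IC against naive the count was 1775, and 1158 to 2367 with 1 array left out, the lowest without poly IC replicate 2. For poly IC plus ethanol against naive it was 929, with 579 under eBayes without the trend and 720 to 1520 with 1 array left out, the highest without ethanol replicate 1. Same-numbered pools of the ethanol and poly IC groups share only a number, and their deviations correlated at r = 0.05. A replicate block called 778 genes and moved Ifnar2 to adjusted p = 0.0179 (value -0.64). For comparisons with naive no paired analysis was possible because that sample has no partner. Members whose sign turned were not called in either setting. Between poly IC plus ethanol and poly IC, Ifnar1 (0.02) was -0.074 with median-centred arrays, -0.032 with quantile normalization, and -0.16 to 0.21 with 1 array left out. Ifngr2 (0.18) was -0.00092 to 0.36 and Il10ra (-0.05) was -0.24 to 0.14 with 1 array left out, Ifnb1 (0.47) was -0.33 to 1.26 and the second Ifnar2 probe set (-0.15) was -0.53 to 0.22. Against naive, Il10rb with poly IC (0.16) was -0.029 with quantile normalization, Ifnb1 with poly IC (0.65) was -0.14 to 1.44 with 1 array left out, Ifng with ethanol (0.11) was -0.34 to 0.56 and the second Ifnar2 probe set with ethanol (0.36) was -0.012 to 0.74. The cause was not tested. Signal over background limits Ifnb1 and Ifng, which exceeded the brightest unspiked control on 3 arrays each.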

Other observations

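Interferon-alpha genes, relatives of Ifnb1 that use the same receptor, were covered by 12 probe sets, 3 of which name several genes and whose suffixes mark most as shared across the family. Of these, 2 exceeded the brightest unspiked control on all 5 arrays and 5 on none. The probe set for Ifna5 had 1255 and 1041 with poly IC plus ethanol, 1167 and 1356 with poly IC and 527 in the naive sample. One probe set for Ifna4 had 368 and 669 with ethanol, 452 and 477 with poly IC and 95.6 in the naive sample. The other Ifna4 probe set had 56.7 and 386 with ethanol, 52.5 and 453 with poly IC and 96.7 in the naive sample, and exceeded the brightest unspiked control on 1 array. The ethanol and poly IC arrays overlapped for all 3 probe sets.

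The array also carries a control probe set for Il10, the ligand of Il10ra, outside the tested genes. It had signals of 1531 and 1951 with poly IC plus ethanol, 1575 and 1839 with poly IC and 63.1 in the naive sample. The ethanol and poly IC arrays overlapped on it, and the naive array lay below the brightest unspiked control, as on the other Il10 probe set.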
